A study of Mus musculus with 14 samples.

Results

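The 10 genes described here encode neurotrophic factors and their receptors: Gfra1, Gfra2, Gfra4, Ret and Nrtn of the GDNF (glial cell line-derived neurotrophic factor) family, and Bdnf, Ntf3, Ntrk2, Ntrk3 and Ngfr of the neurotrophin family. They were taken by symbol from the deposited count table, where all 10 of the 10 names were found among 34193 gene symbols, and all 10 were among the 13815 genes with enough reads to be tested. RNA of the cortex of 14 C57BL/6J mice aged 8 weeks was sequenced, 7 wild type and 7 littermates heterozygous for a knockout of Dnmt3a, a DNA methyltransferase gene, with 4 females and 3 males of each genotype. The sources used here do not give how the knockout allele was made. Sample titles begin with 1 of 6 numbers, and every prefix holds animals of both genotypes and of 1 sex: males in 046, 048 and 119, and females in 047, 139 and 141. The labels do not say what a prefix stands for. Prefixes 119 and 141 (6 animals) are called set B here, and the other 4 (8 animals) set A. The first principal component of all genes held 34.3% of the variance. On it set A lay between -20.09 and -6.08 and set B between 2.06 and 33.1, without overlap. Prefix 119, at 10.97 in the wild-type animal and 2.06 in the heterozygote, lay between set A and prefix 141, so the sets are not 2 sharply divided groups.

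Ligands of the GDNF family bind GFRα co-receptors anchored in the outer membrane, and the complex activates the receptor tyrosine kinase RET. Neurturin, the product of Nrtn, prefers GFRα2, GDNF prefers GFRα1, and GFRα4 is the co-receptor of persephin. Among the neurotrophins, BDNF activates TrkB (Ntrk2) and the product of Ntf3 activates TrkC (Ntrk3), while the receptor p75 (Ngfr) binds all of them. In cortex, Bdnf is transcribed from several start sites in response to neuronal activity, and Ntrk2 also gives a truncated receptor that astrocytes make in large amounts. Counts per gene do not separate such transcripts.

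The genes were chosen by a measured value, the genotype difference of Gfra2, together with names related to it. Gfra2 had been called in a fit with the title prefix as a block and in the authors' deposited table, where its shrunken log2 fold change is 0.24, and the genotype values of the others were known too. Genotype values of the 10 genes are therefore given as a description, with the log2 fold change and its standard error (SE) and no p. A gene counts as called where edgeR's quasi-likelihood test gives it an adjusted p under 0.05, with the adjustment made over all genes tested. Total counts per animal ran from 8951835 to 14335406, and levels are in CPM, counts scaled to a common library size. Dnmt3a itself was at 146 ± 14.2 CPM in wild-type and 99.0 ± 11.4 CPM in heterozygous cortex (SD, n = 7 each). The 9 excitatory neuron markers summed to between 5417 and 7253 CPM per animal and the 7 choroid plexus markers to between 3.40 and 9.69 CPM. Striatal markers, listed to follow the dissection, lay between 243.0 and 794 CPM. In cortex as a whole, fewer cells of a type and less RNA per cell cannot be told apart.

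Dnmt3a writes methyl groups on cytosines, largely at CG in most tissues, which need not hold for cortex. The bases around annotated starts are shown for the gene with the largest genotype difference and for the ligand with the most annotated starts. Only CG was counted, and cytosines outside CG were not. DNA methylation was not measured in these samples. RefSeq start windows of GRCm38.p6, each 300 bases long with 250 before and 50 after a start, were found for 7 of the 10 genes, and Gfra2, Ret and Ntrk3 had none. Capitals mark every CG, counted once for both strands since CG reads the same on each. The Nrtn window is chr17:56757499-56757798 on the minus strand, and the window of Bdnf with the most CG is chr2:109694159-109694458 on the plus strand.
Nrtn: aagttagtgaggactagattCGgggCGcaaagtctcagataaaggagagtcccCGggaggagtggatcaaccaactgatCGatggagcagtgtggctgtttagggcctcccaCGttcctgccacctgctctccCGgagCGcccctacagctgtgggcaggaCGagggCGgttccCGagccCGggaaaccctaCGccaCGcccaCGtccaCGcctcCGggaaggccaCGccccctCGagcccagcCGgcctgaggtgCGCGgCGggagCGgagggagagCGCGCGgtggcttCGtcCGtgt
Bdnf: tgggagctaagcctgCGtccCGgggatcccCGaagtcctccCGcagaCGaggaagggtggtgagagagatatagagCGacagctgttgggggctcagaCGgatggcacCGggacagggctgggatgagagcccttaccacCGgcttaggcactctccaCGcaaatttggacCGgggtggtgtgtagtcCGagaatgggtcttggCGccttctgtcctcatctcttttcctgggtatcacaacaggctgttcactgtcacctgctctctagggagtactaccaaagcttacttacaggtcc
The Nrtn window holds 28 CG, and 14.2% of all 32851 windows of the same length hold as many or more. This Bdnf window holds 13 CG (37.9% of windows hold as many), and the other 6 Bdnf windows hold from 2 to 12. Over all windows the median was 7. Among the other genes, Ngfr and Ntrk2 had 23 CG each, Ntf3 12 and 17, Gfra1 12, and Gfra4 2 and 6.

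The levels of the 10 genes differed by about 2 orders of magnitude per length of exon, as the plot of levels per kilobase shows. Ntrk2 had 37.5 ± 2.44 CPM per kilobase and Gfra2 32.4 ± 4.54 (SD, n = 14 each), and the ranges of these top 2 overlapped, at 33.8 to 42.4 and 24.5 to 38.7. A gap followed. Gfra1 (8.75 ± 1.09), Bdnf (6.50 ± 1.01), Gfra4 (4.40 ± 0.736), Ntrk3 (3.39 ± 0.294) and Nrtn (2.19 ± 0.717) formed a chain in which each gene's range overlapped that of the next. Ret (0.615 ± 0.13), Ntf3 (0.574 ± 0.17) and Ngfr (0.350 ± 0.127) were lowest, apart from Nrtn, and each overlapped the next. The kinase RET was thus far below its co-receptors, at 0.615 CPM per kilobase against 32.4 for Gfra2. These levels rest on the union of annotated exons in GENCODE M21 (from 1.023 kb for Nrtn to 30.17 kb for Ntrk3), an annotation of another build than the counts, and rarely used exons lower the value. Exons of a gene on the opposite strand cover 14.4% of the Bdnf exon bases and 7.6% of those of Gfra1. The sources used here do not say if the reads were counted by strand.

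**Figure D1:**
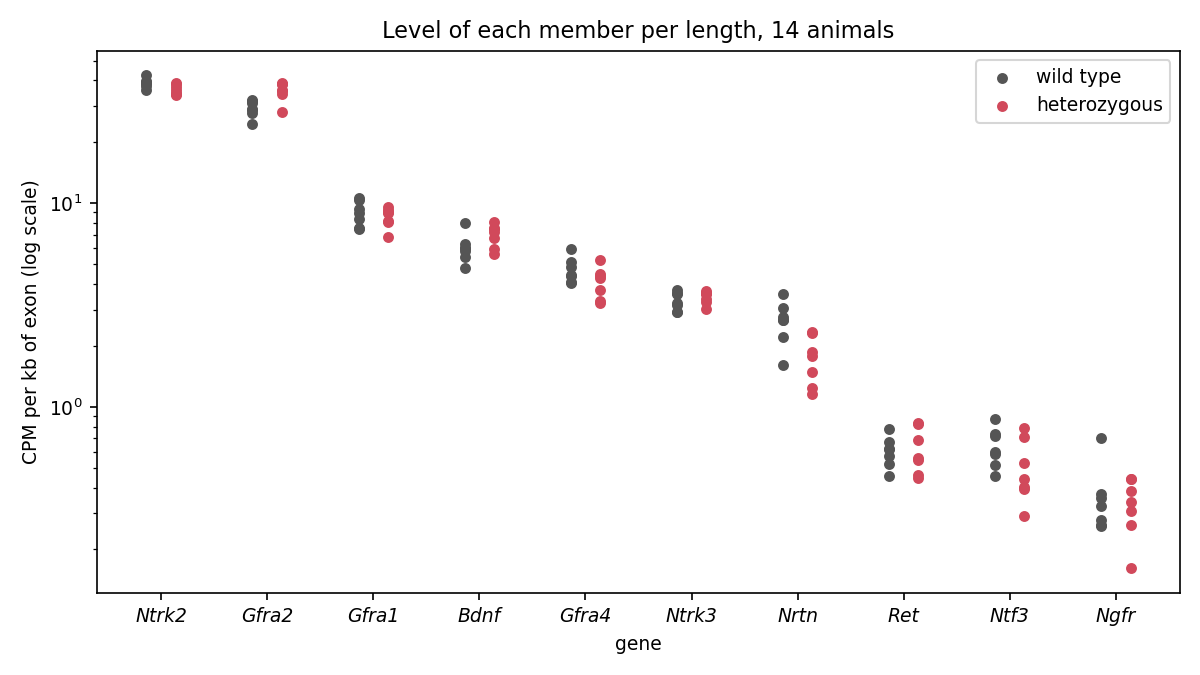
Level of each gene in CPM per kilobase of exon on a log axis, with 1 point per animal, grey for wild type and red for heterozygous. Ntrk2 and Gfra2 lie highest, and Ret, Ntf3 and Ngfr lie below 1 in every animal.

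Spread between animals was widest for the genes with the fewest reads, Ngfr, Nrtn and Ntf3. The coefficient of variation over the 14 animals was 6.5% for Ntrk2 (mean count 8663) and 36.2% for Ngfr (mean count 14.1), where counting alone gives 1.07% and 26.6%. For Ntf3 (mean count 11.7) the spread of 29.7% was close to the 29.2% of counting alone. Ntf3 and Ngfr, both with a mean count under 20, are uncertain throughout. For Bdnf the spread was 15.5% and counting alone gives 4.55%, and for Gfra2 14% and 2.71%.

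Gfra2 was higher in heterozygotes in each prefix. The 7 wild-type animals lay between 86.7 and 113 CPM with a median of 102, and the 7 heterozygotes between 98.7 and 137 CPM with a median of 127. In the males, the wild-type and heterozygous values were 112 and 136 CPM in prefix 046, 101 and 125 in 048, and 102 and 136 in 119. In the females they were 113 and 137 CPM in prefix 047 and 110.3 and 127 in 139, while in 141 the wild-type animals had 86.7 and 98.4 and the heterozygotes 98.7 and 121. So 6 of the 7 heterozygotes stood above every wild-type animal, and the remaining one, of prefix 141, was above both wild-type animals of its own prefix. The fitted level was 1.21 times that of wild type (log2 fold change 0.28, SE 0.0758 with sex as a term; 0.28, SE 0.0513 with the prefix as block). Differences of log2 CPM within a prefix ran from 0.20 in 139 to 0.41 in 119. The log2 fold change was 0.26 (SE 0.0764) in set A and 0.30 (SE 0.0888) in set B.

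Nrtn, which encodes the ligand of GFRα2, had a lower level in most heterozygotes. Wild-type animals had between 1.63 and 3.68 CPM (median 2.73) and heterozygotes between 1.18 and 2.38 CPM (median 1.82), from 15 to 44 reads per animal. All 7 heterozygotes were below the wild-type median, and 3 were below every wild-type animal. The fitted level was 64.5% of wild type (log2 fold change -0.63, SE 0.194), the largest in size among the 10 genes, and it was not called. By prefix, Nrtn was lower in 5 of 6, at -0.96 in 048, -1.17 in 119, -1.05 in 139, -0.53 in 141 and -0.20 in 046, and it was 0.075 higher in 047. The values were -0.54 (SE 0.237) in set A and -0.77 (SE 0.296) in set B.

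The other GDNF receptors had smaller genotype values. Gfra4 lay between 8.81 and 12.9 CPM in wild-type animals (median 9.61) and between 7.04 and 11.4 CPM in heterozygotes (median 9.28). The log2 fold change was -0.20 (SE 0.12), and Gfra4 was lower in heterozygotes in all 6 prefixes, by 0.005 in 046 and by up to 0.30 in 119. Gfra1, the GDNF co-receptor, lay between 40.6 and 58.2 CPM in wild-type animals (median 49.0) and between 37.2 and 52.5 CPM in heterozygotes (median 48.9). Its log2 fold change was -0.06 (SE 0.0931), with differences from -0.23 in prefix 141 to 0.29 in 139. Ret, the signalling kinase, had 3.10 to 5.24 CPM (median 4.18) in wild-type and 3.04 to 5.66 CPM (median 3.81) in heterozygous animals. The log2 fold change of Ret was 0.02 (SE 0.165). Within prefixes it ran from -0.46 in 046 to 0.65 in 139. The genotype ranges of all 3 genes overlapped, and the heterozygotes below every wild-type animal numbered 3 for Gfra4, 1 for Gfra1 and 1 for Ret. For Ret 2 heterozygotes were also above every wild-type animal.

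**Figure D2:**
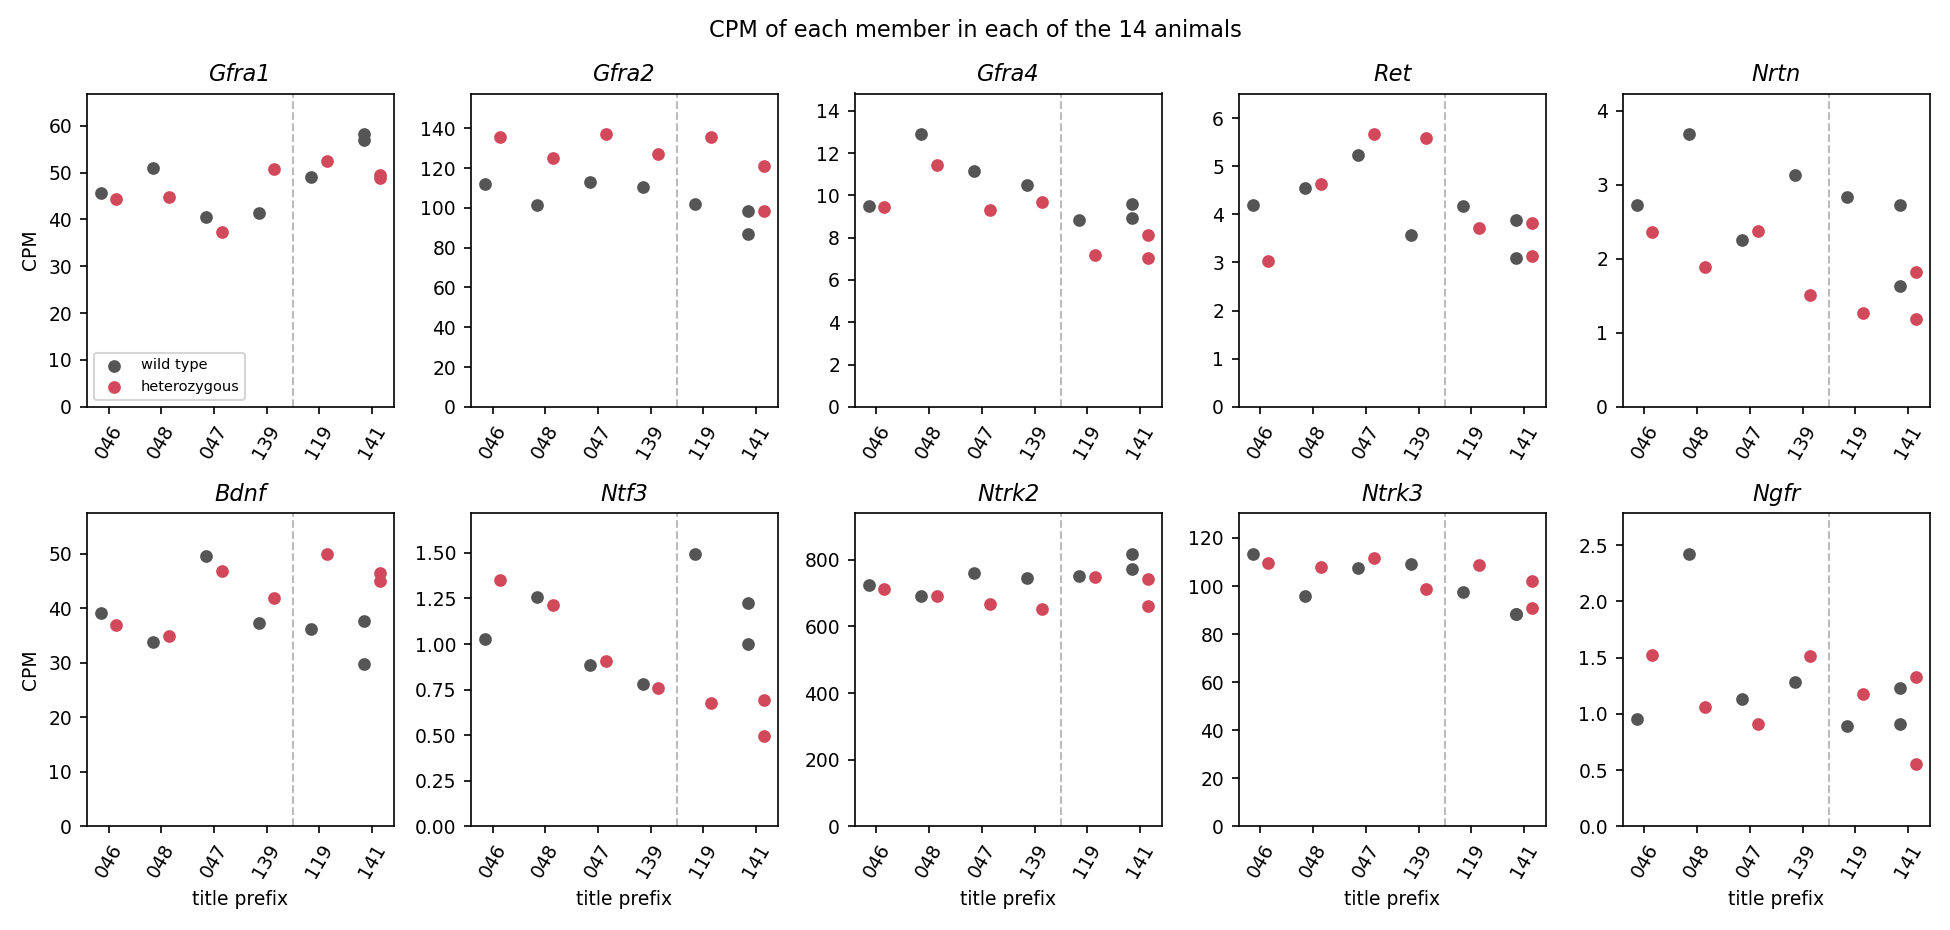
CPM of each of the 10 genes by title prefix, 1 point per animal, grey for wild type and red for heterozygous; the dashed line separates set A on the left from set B (119 and 141). Heterozygotes lie above wild type in every prefix for Gfra2. In set B all 3 heterozygotes lie above all 3 wild-type animals for Bdnf and below them for Ntf3, Gfra4 and Ntrk2. The share of all genes that lie apart in this way was not counted.

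Genotype values of Bdnf were near 0 in set A and positive in set B, and the test of that difference did not pass. In set A, wild-type animals had 33.9, 37.4, 39.1 and 49.5 CPM and heterozygotes 35.01, 36.9, 41.9 and 46.9 CPM. In set B, wild-type animals had 29.8, 36.2 and 37.6 CPM and heterozygotes 45.0, 46.5 and 49.97 CPM. The genotypes were interleaved in set A and apart in set B, where every heterozygote exceeded every wild-type animal. The log2 fold change was -0.00055 (SE 0.101) in set A, 0.44 (SE 0.117) in set B and 0.19 (SE 0.0985) over all animals. The difference between the sets was 0.44 (SE 0.154) and did not pass the test over all genes (adjusted p = 0.187 by edgeR). Gfra4, Ntrk2 and Ntf3 lay apart in set B too, with every heterozygote below every wild-type animal. How many of all genes lay apart in set B was not counted, so these separations are no result about the 10 genes as a group. The first principal component of all genes also differed by genotype within both prefixes of set B. In prefix 119 the wild-type animal was at 10.97 and the heterozygote at 2.06. In 141 the wild-type animals were at 33.1 and 30.9 and the heterozygotes at 15.8 and 11.1. Over all of set B the genotypes overlapped on it, and in set A the direction varied between prefixes. The part of this component in the values of Bdnf, Gfra4, Ntrk2 and Ntf3 was not tested. Marker sums also differed between the genotypes of set B: the 10 astrocyte markers summed to 15870 ± 2451 CPM in wild-type and 13200 ± 934 CPM in heterozygous animals, and the 9 excitatory neuron markers to 6978 ± 329 and 5856 ± 289 CPM (SD, n = 3 each). In set A these excitatory sums were 5611 ± 144 and 5701 ± 69.0 CPM (SD, n = 4 each). Other lists went either way in set B. The interneuron sum was 720.9 ± 102.5 CPM in wild-type and 844 ± 44.1 in heterozygous animals, and the oligodendrocyte precursor and striatal sums were higher in heterozygotes too. The oligodendrocyte sum was level, at 5302 ± 760 and 5286 ± 805 CPM. Microglial, vascular, meningeal, cholinergic and choroid plexus sums were lower in heterozygotes. Camk2a makes up most of the excitatory sum (median 3416 CPM). By genotype over all animals, 7 of the 9 excitatory markers had positive and 2 (Camk2a and Rorb) negative log2 fold changes. Their median was 0.11 and none was called. The part of these markers in the Bdnf values was not tested.

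Ntf3 had genotype values of the opposite sign in set B, on very few reads. Set A wild-type animals had 11, 14, 11 and 13 reads and set A heterozygotes 16, 16, 8 and 8. Set B wild-type animals had 20, 12 and 11 reads (1.49, 1.23 and 1.00 CPM) and set B heterozygotes 8, 10 and 6 (0.674, 0.695 and 0.497 CPM). The log2 fold change was 0.10 (SE 0.293) in set A and -0.96 (SE 0.354) in set B, and the difference of -1.06 (SE 0.462) did not pass (adjusted p = 0.283 by edgeR). Over all animals it was -0.33 (SE 0.22). Across all genes, 0 of 13815 (0%) passed the difference of the genotype effect between the sets by edgeR, and 14.7% had an unadjusted p under 0.05. Among the 10 genes, Bdnf and Ntf3 were the 2 with such a p.

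Genotype values of the neurotrophin receptors were small or imprecise. Ntrk2 was the most precise of the 10, with 691 to 817 CPM (median 751) in wild-type and 652 to 749 CPM (median 689.6) in heterozygous animals. All 7 heterozygotes were below the wild-type median and 4 were below every wild-type animal, yet the log2 fold change was only -0.11 (SE 0.06). Within prefixes Ntrk2 was lower in all 6, by 0.0035 in 048 and 119 and by 0.19 in 139 and 047. Astrocytes make much of the cortical Ntrk2 RNA. The summed CPM of the 10 astrocyte markers was 9459 to 17530 in wild-type and 9047 to 14170 in heterozygous animals. All 10 had negative log2 fold changes. With sex as a term none of the 10 was called, and with the prefix as block 1 was, Agt (-0.52, adjusted p = 0.0234 by edgeR). Their part in the Ntrk2 value was not tested. Ntrk3 had 88.3 to 113 CPM (median 97.4) in wild-type and 90.9 to 112 CPM (median 108) in heterozygous animals. The log2 fold change of Ntrk3 was 0.06 (SE 0.0685). Ngfr, the p75 gene, had 0.896 to 2.42 CPM (median 1.13) and 0.556 to 1.52 CPM (median 1.18), a log2 fold change of -0.12 (SE 0.264). Without wild-type replicate 4, which had 25 reads, the value for Ngfr was 0.10. Ngfr is known from cholinergic neurons of the basal forebrain. Among markers listed for these, Chat was at 0.792 to 3.10 CPM, Slc5a7 at 1.245 to 6.39 and Zic1 at 7.23 to 19.2. Isl1 had no read in 1 animal, Lhx8 in 3 and Gbx1 in 10.

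**Figure D3:**
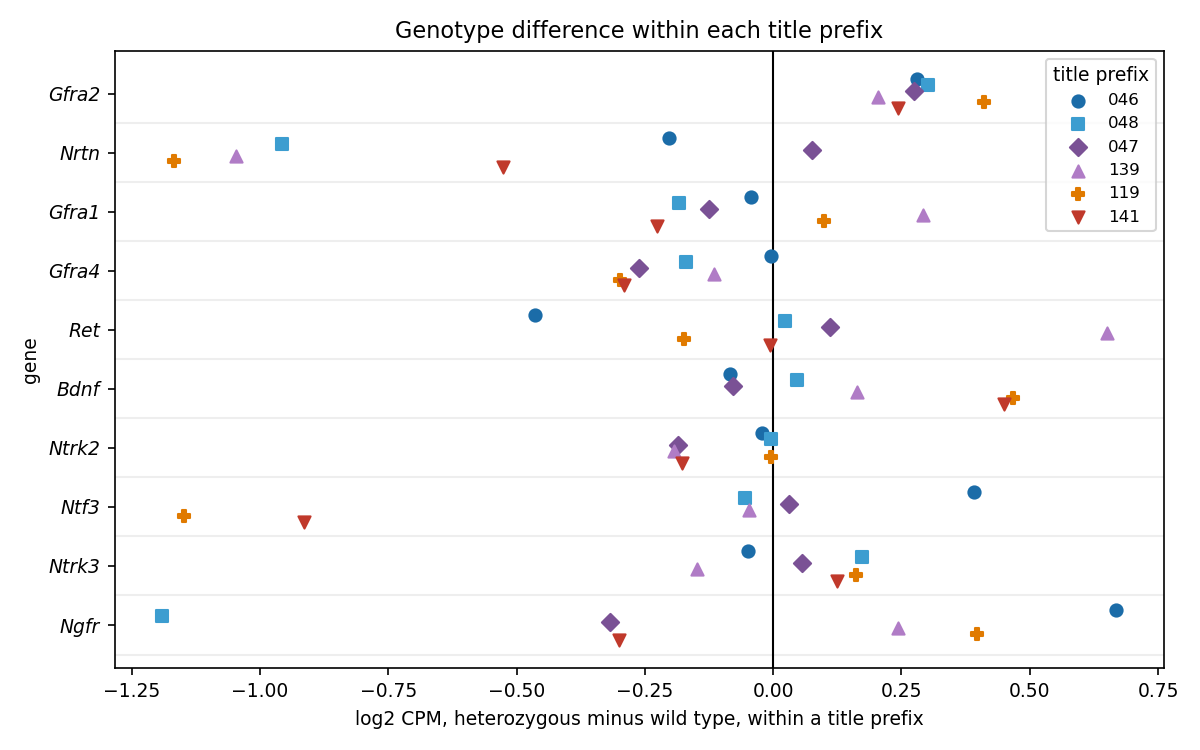
Difference of log2 CPM, heterozygous minus wild type, within each of the 6 title prefixes for the 10 genes (prefix 141 is the mean of 2 animals per genotype). The 6 points of Gfra2 lie between 0.20 and 0.41, while those of Ret, Ngfr and Ntf3 lie on both sides of 0.

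Counted together, 4 of the 10 genes had a positive and 6 a negative genotype value, with a median of -0.084, against a median of 0.0024 and 50.9% positive over all genes tested. With sex as a term, edgeR called 0 of the 10 and 0.0145% of all genes; 2 of the 10 (Gfra2 and Nrtn) and 4% of all genes had an unadjusted p under 0.05, and DESeq2 called 0 of the 10. With the title prefix as a block, 1 of the 10 was called, Gfra2, where 0.405% of all genes were. That call was lost without either animal of prefix 119, and with sex and set as terms it was not made (0.109% of all genes called, 0.0869% higher and 0.0217% lower in heterozygotes, and 9.82% with an unadjusted p under 0.05). The authors' deposited table called 0.191% of its genes, Gfra2 among them. No gene of the 10 had genotype ranges that did not overlap (0.0796% of all genes with heterozygotes higher, 0.0434% lower). The value in heterozygotes was higher in all 6 prefixes for 1 of the 10, Gfra2 (2.38% of all genes), and lower for 2, Gfra4 and Ntrk2 (2.05%). Since genotype values were in view when the list was made, these counts are no evidence about the family.

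Differences between the sets of prefixes were tested with sex and genotype as terms, and 38.8% of all genes were called (19.1% higher and 19.6% lower in set B). The sets were drawn from the expression of these same animals, and the fit takes the 14 animals as independent although set B is only 2 prefixes, 119 and 141, and animals of a prefix deviated together. The adjusted p-values by set do not allow for either and can be too small. Of the 10 genes, 4 were called, a share like that of all genes: Gfra1 higher, and Gfra2, Gfra4 and Ntrk3 lower. Gfra1 rose from 44.5 ± 4.76 CPM in set A (SD, n = 8) to 52.5 ± 4.17 in set B (SD, n = 6), a log2 fold change of 0.24 (SE 0.0679, adjusted p = 0.0061 by edgeR). Gfra4 fell from 10.5 ± 1.27 to 8.28 ± 1.03 CPM (-0.34, SE 0.0958, adjusted p = 0.00731 by edgeR). Gfra2 fell from 120.2 ± 12.9 to 107 ± 17.9 CPM (-0.16, SE 0.0607, adjusted p = 0.0401 by edgeR), and Ntrk3 from 107 ± 6.24 to 96.0 ± 8.32 CPM (-0.15, SE 0.0554, adjusted p = 0.0384 by edgeR). The set ranges of all 10 genes overlapped, while those of 5.96% of all genes lay apart with set B higher and 6.16% with set B lower. Thus the co-receptors of GDNF and neurturin differed between the sets in opposite directions. The calls of Gfra1 and Gfra4 held without any single animal. The Gfra2 call did not hold after leaving out wild-type replicate 1, 2, 3, 5 or 6 or heterozygous replicate 2, 4 or 6 (adjusted p by edgeR up to 0.133), and neither did that of Ntrk3 after leaving out wild-type replicate 1, 2, 3, 5, 6 or 7 or heterozygous replicate 4 or 6 (up to 0.106).

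Ret (-0.33, SE 0.15), Nrtn (-0.34, SE 0.188) and Ngfr (-0.38, SE 0.264) had lower values in set B and did not pass. Ntrk2 had 0.086 (SE 0.0518), and Ntf3 -0.06 (SE 0.247). Bdnf was level between the sets, at 40.1 ± 5.61 CPM in set A (SD, n = 8) and 40.8 ± 7.56 CPM in set B (SD, n = 6), with a value of 0.0057 (SE 0.0959, adjusted p = 0.972 by edgeR). Most lists of cell type markers held calls by set, where 38.8% of all genes were called. Of 10 astrocyte markers, 9 were higher in set B and their sum was 9047 to 10500 CPM in set A and 12310 to 17530 in set B, without overlap. Of 9 interneuron markers 4 were lower and 1 higher, with sums of 884 to 1060 and 656 to 872 CPM. Calls among the 9 excitatory markers were 4 lower and 1 higher. Of 9 microglia markers 4 were higher, and 3 each of the 9 oligodendrocyte and the 9 endothelial and mural markers. Of 9 meningeal markers 3 were lower, and of 9 striatal markers 1. Of 6 oligodendrocyte precursor markers 2 were higher and 1 lower. No tested choroid plexus or cholinergic marker passed. By genotype with sex as a term, no marker of the 11 cell type lists passed. The part of cell type in the values of the 10 genes was not tested.

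A test over all 6 prefixes with genotype as a term called 3 of the 10, Gfra1, Gfra2 and Gfra4, where 33.2% of all genes were called. Their adjusted p by edgeR was 0.0161, 0.0277 and 0.0207. Animals of a prefix share sex and set, so this test covers both. Females and males differed in none of the 10 (1 gene of all, 0.00724%), with values from -0.49 (SE 0.22) for Ntf3 to 0.12 (SE 0.0996) for Bdnf, female over male. Only Ntf3 had an unadjusted p under 0.05, as did 6.98% of all genes, and DESeq2 called 0 of the 10. Every prefix holds 1 sex, so sex was compared between prefixes, while the fit takes the animals as independent. The genotype effect differed between the sexes for 0 of the 10 and 0% of all genes by edgeR, with 0 of the 10 and 1.04% of all genes at an unadjusted p under 0.05. In females and males the genotype value was 0.24 and 0.33 for Gfra2, -0.55 and -0.73 for Nrtn, 0.22 and 0.16 for Bdnf, and -0.18 and -0.0097 for Ntrk2.

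**Figure D4:**
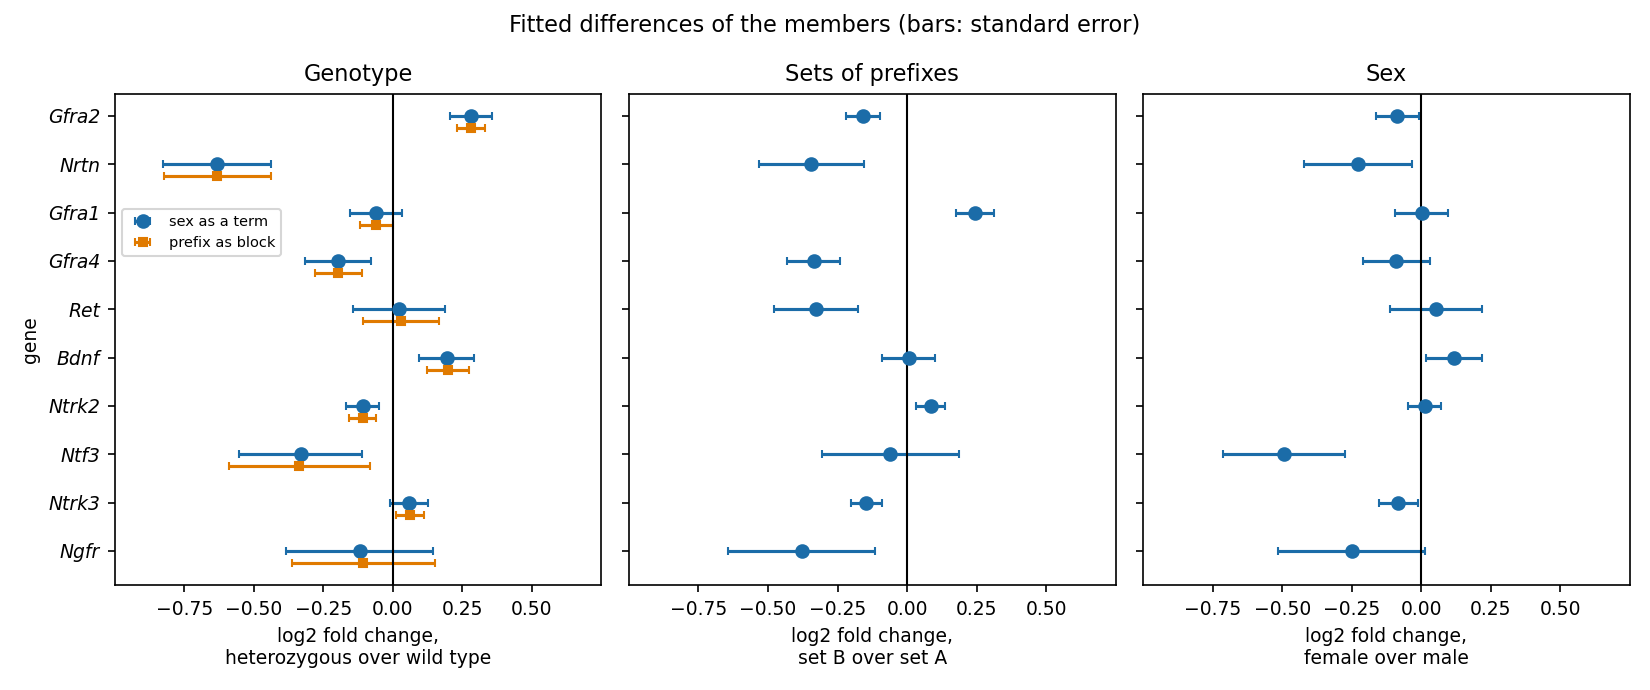
Log2 fold changes of the 10 genes by genotype, by set of prefixes and by sex, with bars for the standard error; orange squares are genotype values with the prefix as block. Gfra2 and Nrtn lie on opposite sides of 0 by genotype, and Gfra1 alone among the called genes lies to the right by set.

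Log2 CPM was correlated within each set for 7 pairs of the 10 genes, 14 correlations in all. The pairs were 3 of a ligand and its receptor (Bdnf with Ntrk2, Ntf3 with Ntrk3, Nrtn with Gfra2), 2 of a co-receptor and Ret (Gfra1 and Gfra2), the ligands Bdnf and Ntf3, and the receptors Ntrk2 and Ntrk3. None passed after adjustment (smallest adjusted p = 0.416 for Pearson's r and 0.381 for Spearman's rho, exact permutation tests, two-sided). The largest was between Bdnf and Ntf3 in set B, at r = -0.83 (exact permutation p = 0.0417, n = 6) and rho = -0.886 (exact permutation p = 0.0333), and -0.954 without the 2 animals farthest from the median of Bdnf. In set A the same pair had r = -0.605 (exact permutation p = 0.119, n = 8) and rho = -0.667 (exact permutation p = 0.0831), and -0.724 without the 2 farthest. Nrtn and Gfra2 had r = -0.665 in set A (exact permutation p = 0.0733, n = 8; rho = -0.619, p = 0.115) and r = -0.278 in set B (exact permutation p = 0.61, n = 6; rho = -0.0857, p = 0.919). Without the 2 farthest animals these were -0.494 and -0.103. Both genotypes are in each set, so a genotype difference is part of these values. The permutations take the animals of a set as independent, although animals of a prefix deviated together, and the p-values do not allow for that.

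The genes whose pattern over the 14 animals was most like that of Gfra2 were Cacna1g, a T-type calcium channel gene, 1110032A04Rik, Chsy3, a chondroitin synthase gene, and Usp43. Likeness was the root mean square difference of log2 CPM scaled to SD 1 over the 14 animals, and these had 0.38, 0.392, 0.415 and 0.429, where the median of all genes was 1.37. Their genotype values were 0.19, 0.46, 0.17 and 0.35, and none was called with sex as a term. Nearest to Bdnf were Skil (0.414), Cdh11 (0.418), Ascc3 (0.425) and Cdkn1a (0.455), with genotype values of 0.11, 0.11, 0.078 and 0.14. Genotype values of Skil, a SMAD co-repressor gene, and Cdh11, a cadherin gene, were thus smaller than that of Bdnf.

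Other genes of both pathways were read from 7 lists. By genotype with sex as a term, none of their tested genes passed, in either direction. Of 13 GDNF family genes 7 had enough reads, with 3 positive and 4 negative and a median of -0.056. The ligand genes Gdnf and Artn had at most 10 and 7 reads in any animal, Pspn at most 1, and Gfra3 had none. Beyond the 10 genes, Ncam1, an alternative GDNF receptor, had 0.11 (SE 0.0762) and Sdc3, a heparan sulfate proteoglycan gene, -0.056 (SE 0.0832). Of 13 neurotrophin genes and receptors 11 were tested, with 8 positive and 3 negative and a median of 0.085. Ntf5, a further ligand gene, had at most 3 reads in any animal. The sortilin family genes Sort1, Sorcs1, Sorcs2, Sorcs3 and Sorl1 had values between 0.046 and 0.19.

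Genes of neurotrophin processing and release were positive in 6 of 11 (median 0.037), with Scg2 at 0.16 and the prohormone convertase gene Pcsk2 at 0.21. Partners of p75 were positive in 8 of 10 (median 0.065), with Rtn4rl1 at 0.12 and Lingo1 at 0.13. Adaptors and early kinases of Trk and RET were positive in 16 of 32 (median -0.0061), with the kinase gene Mapk3 at -0.18 and the adaptor gene Sh2b3 at -0.21. Regulators of Bdnf transcription were positive in 6 of 14 (median -0.011), with Bhlhe40 at 0.29 and the CREB coactivator gene Crtc1 at -0.11. Genes that Trk signalling induces, many of them also induced by activity in other ways, had 17 positive values among 20 and a median of 0.17. Among these Nptx2 had 0.24 (SE 0.119) and Etv5 0.14 (SE 0.0733). With the prefix as block, Egr1 passed in this list (0.28, adjusted p = 0.0414 by edgeR), and Gfra2 passed among the GDNF genes; no gene of the other 5 lists did.

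Between the sets the same lists held many calls. Of the 20 genes induced by Trk signalling 12 were lower and 1 higher in set B, with a median of -0.45; Egr1 fell by 0.75, Dusp6 fell by 0.40 and Spred1 rose by 0.25. Bdnf, with 0.0057, was level beside them. Of the 10 partners of p75 5 were lower and 1 higher, led by Rtn4r (-0.64), which encodes the Nogo receptor, Lingo1 (-0.46) and Maged1 (-0.44). Of 11 neurotrophin genes and receptors 4 were lower and none higher, led by Sort1 (-0.31), Sorcs2 (-0.20) and Ntrk3. Of 7 GDNF genes 4 were lower and 1 higher, led by Sdc3 (-0.27) with Gfra1 and Gfra4. Of 11 processing genes 4 were lower, among them Pcsk2 (-0.32) and Furin (-0.29), and 1 was higher, Cpe (0.37). Of 32 adaptors and kinases 10 were lower and 8 higher, led by Dok6 (0.59), Mapk7 (-0.48) and Shc3 (0.46). Of 14 regulators of Bdnf 2 were lower and 2 higher, among them Bhlhe40 (-0.47) and Creb1 (0.23). All values in this paragraph are log2 fold changes of set B over set A, and 38.8% of all genes were called.

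**Figure D5:**
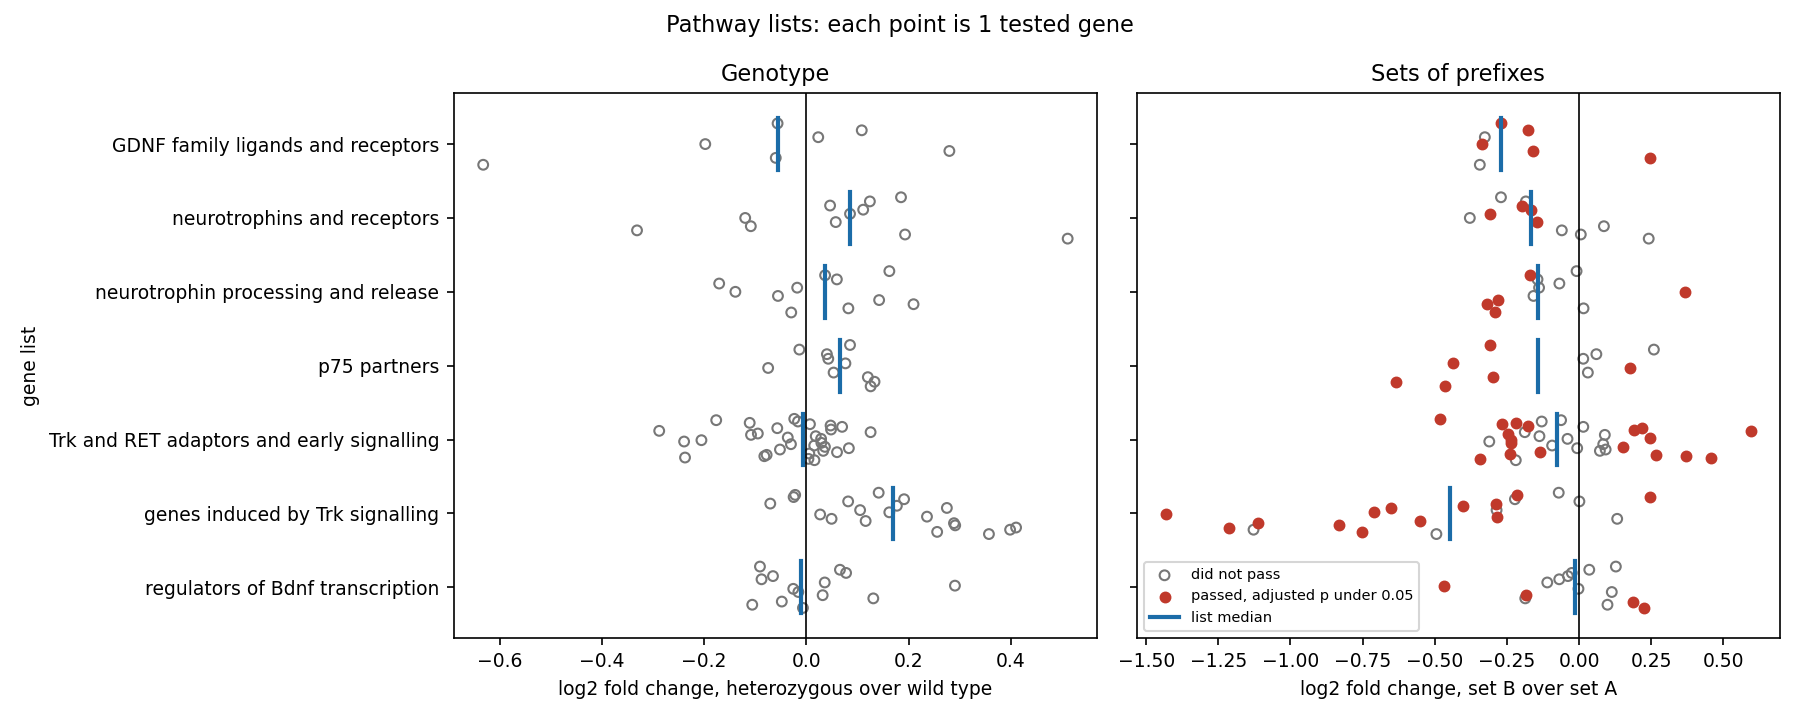
Log2 fold changes of the tested genes of the 7 pathway lists, by genotype on the left and by set of prefixes on the right; filled red points passed at an adjusted p under 0.05 and blue lines are list medians. By genotype no point is filled, and by set the genes induced by Trk signalling reach furthest to the left, with a median of -0.45.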

How the data were processed

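RNA of 14 cortex samples was sequenced as single-end reads from libraries of a directional kit, per the labels' protocols, and each sample was taken as 1 animal. The authors deposited whole-number counts per gene symbol with no normalization, and beside them their own comparison, whose columns hold, per the file headers, a DESeq fold change, test statistic, p-value and adjusted p-value. The deposited fold change is on a log2 scale and shrunken towards 0, and the deposited statistic is a score with no fixed range. Per the submitters' processing notes, the tools were Trim Galore, Bowtie, STAR and bedtools and the build was mm9, with neither versions nor the role of each tool.

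Genes were kept by filterByExpr by genotype (minimum count 10), scaled by TMM and tested with edgeR 4.0.16 (R 4.3.3, limma 3.58.1), quasi-likelihood with robust dispersion, and Benjamini-Hochberg adjustment over 13815 genes. DESeq2 1.42.0 was an alternative. Genotype was fitted with sex, sets with sex and genotype, sex and prefixes with genotype, and values within a set or sex come from 1 fit of all animals. CPM uses TMM library sizes, and log2 CPM a prior count of 2. P-values of the fits set a difference against the spread between these animals, which are taken as independent given the terms fitted. The fits were run on simulated data in which animals of a prefix did not deviate together, so that run does not cover such deviations.

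The 10 genes, the pathway and marker lists, the sets and the tests were chosen with earlier results of these data known. Named are the 10 genes, list genes past the threshold by genotype or else the 2 with the smallest p, the 3 with the smallest p by set, and the 4 genes most like Gfra2 and Bdnf; other sortilin and GDNF family genes were named after their values were seen. Deviations from the group means correlated across genes between genotypes within a prefix (r from 0.2 to 0.517 in 9 pairs, all above 0.1); animals of a prefix also share sex and set. The prefix was therefore used as a block beside the fit with sex. Alternatives were DESeq2 size factors, no filter, other terms and leaving out each animal. Some list genes that this rule names are not reported here.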

Additional observations from a re-analysis of the deposited data

Results flagged for a closer look

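Each of the 10 genes was looked at within each genotype, 20 groups of 7 animals, for a sample far from the others, and 2 stood out; chance gives about 1 in 20 groups. Gfra2 in heterozygous replicate 6, of prefix 141, was at 98.7 CPM, where the other heterozygotes lay between 121 and 137 CPM. Without it the genotype value of Gfra2 was 0.33. Ngfr in wild-type replicate 4, of prefix 048, was at 2.42 CPM on 25 reads, where the other wild-type animals lay between 0.896 and 1.28 CPM.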

How the results depend on the processing

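By genotype, 2 genes were called with sex as a term, 11 by DESeq2, 15 with sex and set as terms and 56 with the title prefix as replicate block, and between 1 and 4 when 1 animal was left out. With the block, leaving out 1 animal gave between 10 (without wild-type replicate 5) and 120 genes (without wild-type replicate 1); these fits were added after the data were seen. Gfra2 kept a value of 0.25 to 0.31 there. With the block no gene of the 10 other than Gfra2 changed its call, and the genotype effect between sexes still had 0 genes. Females and males differed in 1 gene, in 9 without a filter, 11 by DESeq2 and 17 with the set as a term, and in 1 to 12 when 1 animal was left out. The filter was set by genotype, with 7 animals each, so genes read only in the 6 males can be missing from the genes tested. By set, counts stayed between 4654 and 5483 without 1 animal. Ntrk3 did not pass by set without a filter (-0.15, adjusted p = 0.0515 by edgeR). Without 1 animal, values by set ran from -0.083 to 0.083 for Bdnf and from -0.19 to 0.093 for Ntf3, so neither has a direction, and Ret passed without wild-type replicate 1 or 5 or heterozygous replicate 2. Under the scaling, filter, test and term alternatives, 114 values of single genes or pairs were compared. Of these, 113 kept their direction and call or moved by less than their standard error. The exception was the value of Ntrk3 by set without a filter. Genotype values were judged only by how far they moved, so Gfra2 is among the 113 although it was called with the prefix as block. Low counts limit Nrtn, Ntf3 and Ngfr. The causes of these changes were not tested.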
